A study of Mus musculus with 13 samples.

Results

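Histone H3.3 is the form of histone H3 that is laid down throughout the cell cycle, and H3f3a and H3f3b are the pair of mouse genes that encode it. Dedicated chaperones place it. The HIRA complex, built from Hira, Ubn1 and Cabin1, deposits H3.3 at active genes and receives the histone from the carrier Asf1a, while Daxx works with the chromatin remodeller Atrx at repeats, telomeres and other heterochromatin. In gliomas of the midline the K27M mutation of H3.3, a lysine-to-methionine change in the histone tail, blocks the methylation of lysine by the Polycomb complex PRC2, and Atrx is itself a glioma gene. The 8 genes H3f3a, H3f3b, Hira, Ubn1, Cabin1, Asf1a, Atrx and Daxx were taken by name, out of 55450 genes in the GENCODE M21 annotation.

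Open chromatin at these genes was read from 13 ATAC-seq libraries of mouse oligodendrocyte progenitor cells (OPCs), each a list of called peaks. In this assay the Tn5 transposase cuts accessible DNA. The groups were 3 control brainstem libraries (cultures 51, 59 and 61), 3 K27M brainstem libraries (cultures 41, 59 and 61), 3 control telencephalon libraries (cultures 51, 59 and 61) and 4 K27M telencephalon libraries (cultures 41, 51, 59 and 61). All cells were panned with an antibody to PDGFRa from pups of hGFAP-Cre;K27M litters aged 5 to 7 days, pooled by region and genotype. The sample records spell this line AMGFAP-Cre;K27M, and hGFAP-Cre is the name in the study's methods. Cells were kept undifferentiated with forskolin, CNTF, neurotrophin-3 and PDGF. The labels call the telencephalic tissue cortex, and the dissection took cortex, corpus callosum and hippocampus. The study's methods describe a conditional K27M knock-in at H3f3a itself, on an FVB background, switched on by a Cre driven by the human GFAP promoter in neural stem and progenitor cells, and littermate controls. For the single-cell data the study describes its littermate controls as lacking Cre and expressing H3f3a from a single allele because of the floxed stop cassette, and the genotype of the control pups behind these cultures was not stated separately. Since pups were pooled, the culture and not the pup was the replicate, and Cre acted in other descendants of those progenitors too.

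The lists held 16879 to 52466 peaks, and the shortest was that of control telencephalon 59. Read depth is unknown, so a gene without a peak had no called peak and was not shown to be closed. Of the OPC markers, Pdgfra, Olig1, Olig2 and Sox10 had a promoter peak called in 13 of 13 libraries and Cspg4 in 3. The astrocyte markers Gfap and Slc1a2 and the neuronal markers Tubb3, Syt1 and Snap25 were called in 13 of 13 as well. The microglial marker P2ry12 was called in 12, so such calls alone do not set OPCs apart. Of 4 markers each, 0 to 2 mature oligodendrocyte promoters, 0 to 3 microglial and 0 to 1 endothelial promoters were called per library, while 2 to 4 astrocyte and 3 to 4 neuronal promoters were. Promoter peaks of astrocyte and neuronal markers were thus present throughout, and their part in the members' values was not tested.

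The promoters of 5 members are shown because the results turn on them, namely the pair of H3.3 genes, the member with the highest peaks, and the only members whose control and K27M libraries did not overlap in promoter peak fold within a region. Sequences are the RefSeq promoter windows of GRCm38.p6, the assembly of mm10, from 250 bases before the RefSeq start to 50 after it, 5′ to 3′ on the gene's strand. All 8 members had an entry. Capitals mark exact matches on either strand to the CCAAT box (CCAAT), the GC box (GGGCGG), the TATA box (TATAAA) and the cAMP response element (TGACGTCA), and a long run of capitals in H3f3a holds overlapping GC boxes. Matches are letters only, not sites of binding.
H3f3a, chr1:180813556-180813855, minus strand: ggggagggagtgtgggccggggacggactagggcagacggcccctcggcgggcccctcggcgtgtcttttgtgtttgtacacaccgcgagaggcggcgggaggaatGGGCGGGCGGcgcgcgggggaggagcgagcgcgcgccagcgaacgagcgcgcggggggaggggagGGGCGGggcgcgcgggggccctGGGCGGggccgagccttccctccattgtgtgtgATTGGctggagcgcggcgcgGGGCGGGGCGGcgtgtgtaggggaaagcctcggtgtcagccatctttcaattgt
H3f3b, chr11:116024455-116024754, minus strand: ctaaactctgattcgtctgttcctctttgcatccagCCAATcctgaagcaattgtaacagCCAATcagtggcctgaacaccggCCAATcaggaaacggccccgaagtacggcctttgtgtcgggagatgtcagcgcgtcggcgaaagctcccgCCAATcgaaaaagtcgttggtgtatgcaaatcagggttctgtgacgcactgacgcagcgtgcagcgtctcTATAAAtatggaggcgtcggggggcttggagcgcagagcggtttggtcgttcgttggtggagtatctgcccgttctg
Ubn1, chr16:5049807-5050106, plus strand: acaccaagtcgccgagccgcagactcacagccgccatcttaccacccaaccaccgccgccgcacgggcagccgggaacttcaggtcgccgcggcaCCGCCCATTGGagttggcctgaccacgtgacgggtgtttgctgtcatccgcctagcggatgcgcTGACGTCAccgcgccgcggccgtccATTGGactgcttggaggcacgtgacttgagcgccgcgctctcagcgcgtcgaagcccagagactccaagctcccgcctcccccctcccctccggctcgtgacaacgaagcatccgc
Asf1a, chr10:53596711-53597010, plus strand: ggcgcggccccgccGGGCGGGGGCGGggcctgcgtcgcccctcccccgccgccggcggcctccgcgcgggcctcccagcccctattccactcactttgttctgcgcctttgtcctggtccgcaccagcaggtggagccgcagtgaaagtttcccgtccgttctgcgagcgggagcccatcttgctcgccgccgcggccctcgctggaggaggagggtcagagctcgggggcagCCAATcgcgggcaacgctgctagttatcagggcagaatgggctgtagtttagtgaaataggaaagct
Atrx, chrX:105929323-105929622, minus strand: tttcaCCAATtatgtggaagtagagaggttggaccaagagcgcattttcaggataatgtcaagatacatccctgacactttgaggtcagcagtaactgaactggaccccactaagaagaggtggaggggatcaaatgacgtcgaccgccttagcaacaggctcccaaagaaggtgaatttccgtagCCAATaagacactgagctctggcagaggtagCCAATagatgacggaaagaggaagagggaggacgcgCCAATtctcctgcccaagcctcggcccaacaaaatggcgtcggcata

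H3f3a and H3f3b encode the same protein from unlike promoters. The H3f3a window was 74% G or C with 39 CpG pairs and 6 GC boxes, a number of GC boxes that 1.35% of the 32851 windows in the table reached. The H3f3b window was 55% G or C with 24 CpG pairs, no GC box, 4 CCAAT boxes (a number reached by 1.06% of windows) and a TATA box 27 bases before the start (present in 13.6% of windows). The median window held 7 CpG pairs and was 52.7% G or C. Atrx had 4 CCAAT boxes, 11 CpG pairs and 50.3% G or C, the fewest CpG pairs of the 8 members. Ubn1 was the only member with a cAMP response element, which 1.79% of windows held. Hira (31 CpG pairs), Asf1a (31) and Daxx (33) were CpG-rich as well, and Cabin1 had 22. The whole window lay inside the called promoter peak in 13 of 13 libraries for 6 members, in 11 for Asf1a and in 9 for Atrx.

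Each of the 8 members had a called peak at a promoter in 13 of 13 libraries, where a promoter ran from 2000 bp upstream to 1000 bp downstream of any annotated start. Of 21951 protein-coding genes 9211 (42.0%) had this. Peak strength was the deposited fold enrichment over the local background of the same library, and, to set lists of unequal length side by side, its percentile within the library's own list. The median over members was a mean fold of 3.4 and a mean percentile of 70.3, against 3.56 and 75.7 over the 9211 coding promoters. Of the members 6 sat below the middle of the constantly called promoters and H3f3b and Ubn1 above it.

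**Figure D1:**
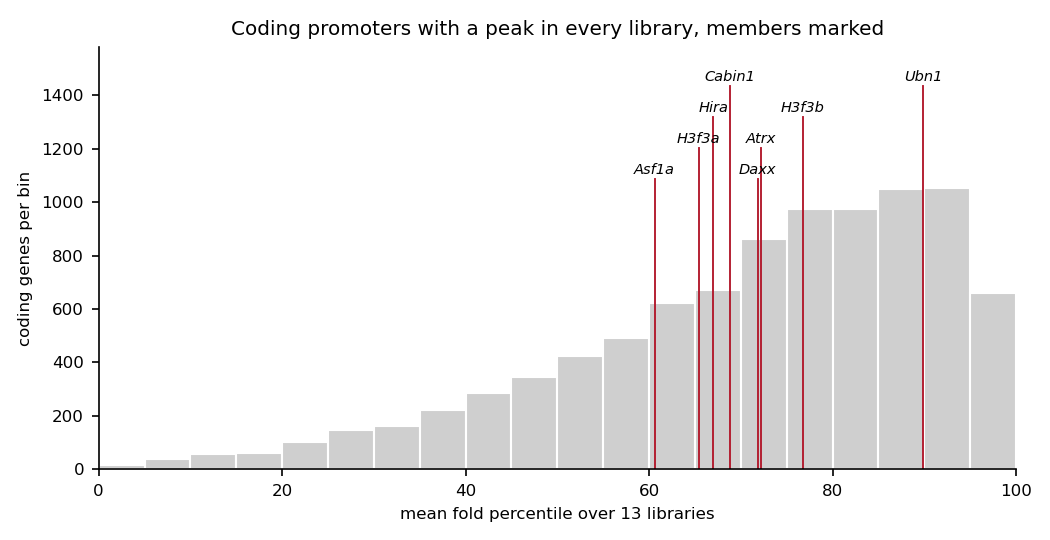
Mean fold percentile over the 13 libraries (x axis, percent) of the 9211 protein-coding genes with a promoter peak in every library, as the number of genes in bins of 5 percentile points (y axis), with the 8 members as red lines. Ubn1 stands at 89.9 and the other members lie between 60.6 (Asf1a) and 76.7 (H3f3b).

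H3f3a, at chr1:180800832-180813943 on the minus strand, is the gene that carries the K27M allele in the mutant cultures. Peak lists hold no alleles, so its peak neither checks the genotype labels nor tells a knock-in allele with or without its stop cassette from the normal one. Its promoter fold was 3.45, 3.34 and 3.39 in the control brainstem cultures and 3.84, 3.35 and 3.21 in the K27M brainstem cultures, in the order of the culture numbers. In control telencephalon it was 3.10, 2.58 and 3.97, and in K27M telencephalon 2.76, 3.66, 3.32 and 2.84. The genotypes overlapped in both regions. The 3 control brainstem libraries agreed closely (3.39 ± 0.05, SD, n = 3), while the 3 control telencephalon libraries held both the lowest and the highest value of all 13. The mean over all libraries was 3.29 ± 0.41 (SD, n = 13), and the peak was 1049 to 1849 bp wide. An annotated antisense transcript, H3f3aos, starts 159 bp inside H3f3a and lay under the peak in 13 of 13 libraries, so the peak belongs to both.

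H3f3b, at chr11:116021912-116027962 on the minus strand, had the second highest mean fold of the members (3.61 ± 0.50, SD, n = 13) and the largest median −log10 p (19.8, against 11.3 for H3f3a). Its fold was 4.10, 3.75 and 3.88 in control brainstem and 4.04, 3.70 and 3.00 in K27M brainstem. In control telencephalon it was 3.31, 2.68 and 4.42, and in K27M telencephalon 3.29, 4.01, 3.64 and 3.11. The genotypes overlapped in both regions here too. Its peak was the narrowest of the members by median, 923 bp (704 to 1074 bp). H3f3b exceeded H3f3a in 12 of 13 libraries, by a mean of 0.32 ± 0.22 (SD) on the fold scale.

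Mean folds of the HIRA complex genes ran from 3.31 to 4.05. Ubn1 (chr16:5050057-5086289, plus strand), whose protein binds H3.3 within the complex, had the highest mean fold, 4.05 ± 0.38 (SD, n = 13), and a mean percentile of 89.9, above 81.0% of the constantly called coding promoters. Its 13 values ran from 3.42 to 4.58, and even the lowest percentile was 76.3. Hira (chr16:18877037-18970309, plus strand), the subunit that gives the complex its name, had 3.31 ± 0.31 and the widest peak, 2083 bp by median (1701 to 2238 bp). Cabin1 (chr10:75646112-75764341, minus strand), a further subunit, had 3.34 ± 0.38. Ubn1 exceeded H3f3b, next in the order, in 9 of 13 libraries (mean difference 0.44 ± 0.44, SD), a difference no larger than its SD.

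Asf1a (chr10:53596757-53609225, plus strand), which hands H3.3 with H4 to Hira, had the lowest mean fold, 3.25 ± 0.47 (SD, n = 13), and the widest spread of percentiles, from 4.36 in control brainstem 59 to 89.0 in K27M telencephalon 61. Daxx (chr17:33909414-33915590, plus strand) and Atrx (chrX:105797615-105929403, minus strand) had near-equal means, 3.47 ± 0.44 and 3.49 ± 0.51. Atrx combined the third highest mean fold with the lowest median −log10 p of the members, 6.55, and a width that ran from 394 to 1591 bp, a range similar to that of Cabin1 (405 to 1618 bp). Further down, no gene differed from its neighbour in the order H3f3b, Atrx, Daxx, Cabin1, Hira, H3f3a, Asf1a by more than the SD of the within-library difference. The highest of those 6 mean differences was 0.13 ± 0.43, between Daxx and Cabin1.

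**Figure D2:**
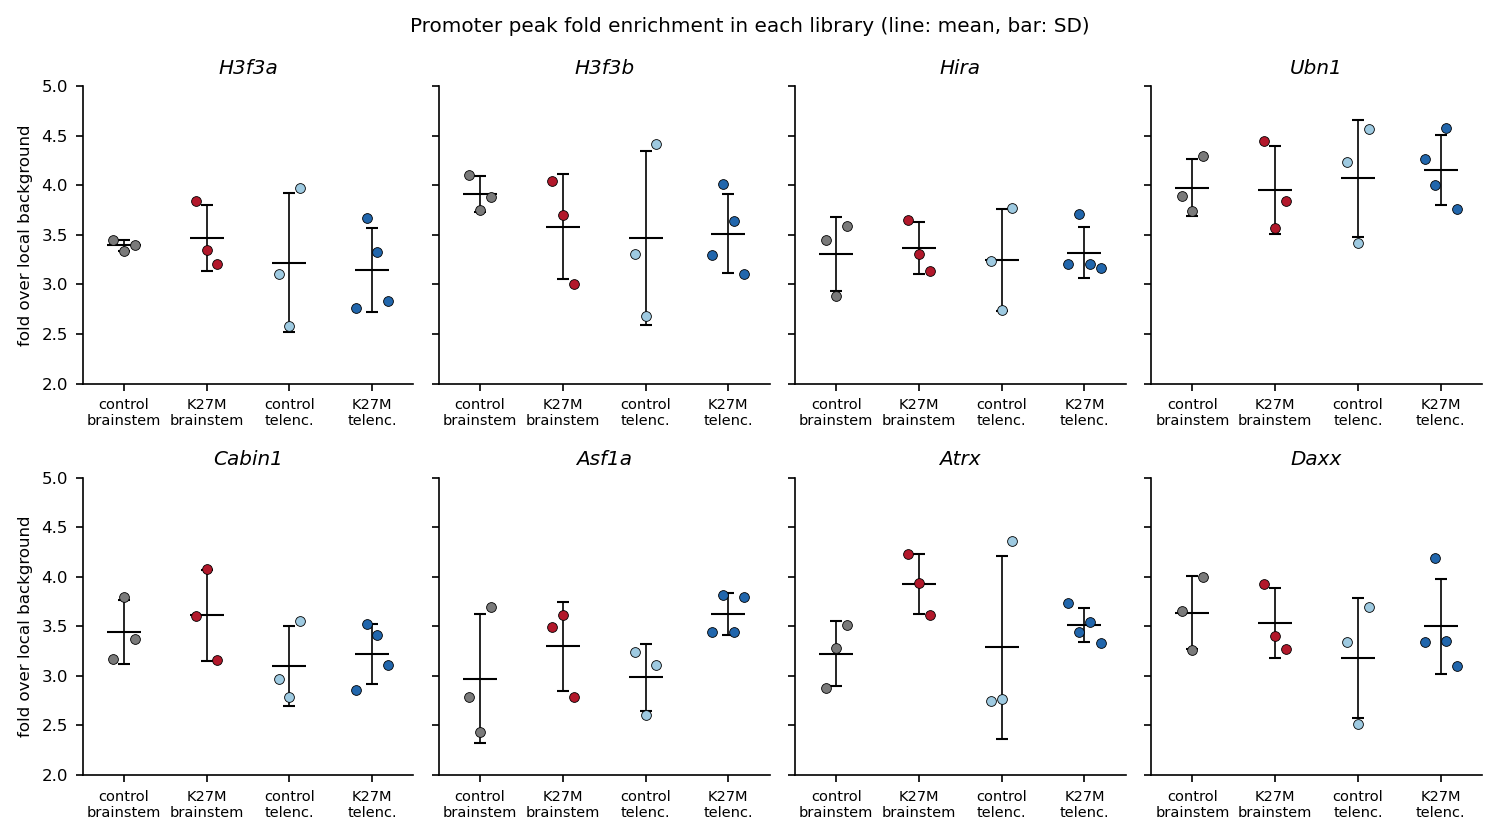
Fold enrichment of the promoter peak over local background (y axis, linear, 2 to 5) in each library for the 8 members, by group (x axis, with telencephalon shortened to telenc.). Points are single libraries in the order of their culture numbers, horizontal lines are group means and vertical bars the SD (n = 3, or 4 for K27M telencephalon). On this scale the genotypes separate in brainstem for Atrx and in telencephalon for Asf1a.

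The shortest peak list stood apart in these values. Control telencephalon 59, which held it, had the lowest fold of 6 of 8 members and the lowest percentile of 6 of 8, and control telencephalon 61, with 45322 peaks, had the highest fold of 4. The longest list, that of control brainstem 61, held the highest fold of no member. Without control telencephalon 59 the order of the mean folds was the same, from 4.10 for Ubn1 to 3.3 for Asf1a. The part of library yield in the members' differences was not tested.

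Calling strength separated the members further. At a p-value of 1e-10 or less, Ubn1 kept its promoter peak in 13 libraries, H3f3b in 12, Daxx in 11, Hira in 10, H3f3a in 9, Asf1a in 7, Cabin1 in 6 and Atrx in 2. The 2 libraries for Atrx were K27M brainstem 41 and control telencephalon 61. With every list reduced to its 16879 most significant peaks, 6 of 8 members kept a peak in 13 of 13 libraries. Asf1a was then called in 12, missing from control brainstem 59, and Atrx in 10, missing from control brainstem 61, control telencephalon 51 and K27M telencephalon 51. Such losses fell in both genotypes.

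Promoter peaks of 4 further members covered the start of a gene on the opposite strand in 13 of 13 libraries. They were Mrpl40, a mitochondrial ribosomal protein gene, 175 bp upstream of Hira, Glyr1, 194 bp upstream of Ubn1, and the noncoding BC051226, 97 bp upstream of Daxx. Mcm9, a helicase gene, starts 290 bp inside Asf1a. Peak values of H3f3a, Hira, Ubn1, Asf1a and Daxx therefore describe divergent or overlapping start regions and cannot be assigned to one of the genes. H3f3b, Cabin1 and Atrx had no other gene's start under their peak.

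**Figure D3:**
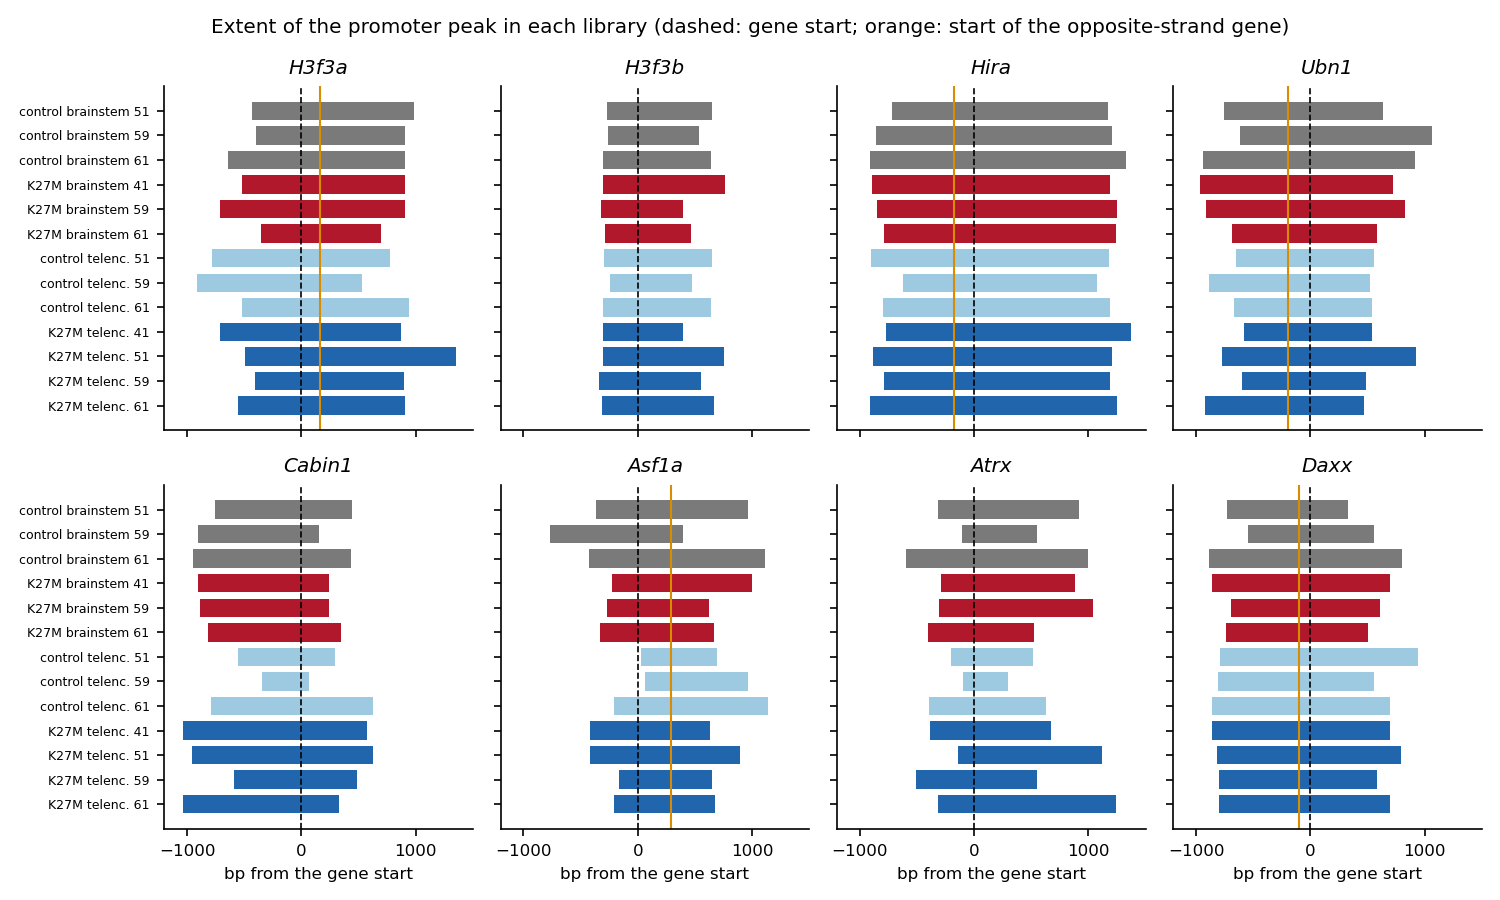
Extent of the strongest promoter peak of each member in each library (one bar per library, coloured by group), in bp from the outermost annotated start inside the peaks (x axis, transcription to the right). The dashed line is that start and the orange line the nearest start of the opposite-strand gene. Atrx bars in control telencephalon (394 to 1028 bp) are all shorter than in K27M telencephalon (1051 to 1556 bp).

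The comparison of genotypes asks whether K27M altered accessibility at the genes that make and place H3.3. Differences were fitted with limma on the log2 fold centred on each library's median, with culture as a block, over the 11483 genes with a promoter peak in every library. No member passed an adjusted p (Benjamini-Hochberg) of 0.05 in either region, nor did any of the 11483 genes (background 0.0% in brainstem and 0.0% in telencephalon). At an unadjusted p under 0.05 the counts were 0 of 8 members in brainstem and in telencephalon, against 455 genes (3.96%) and 477 genes (4.15%) of all tested. The difference of the K27M effect between regions gave no call either, with 0 of 8 members and 0.0% of genes past the adjusted threshold and 0 of 8 members and 443 genes (3.86%) at the unadjusted one. These p-values measure the spread among libraries of pooled pups that is left after group and culture number. For each gene limma moderated this spread towards the trend over the 11483 genes, so it is not that promoter's own spread alone.

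For the H3.3 genes the fitted K27M minus control differences were small with wide intervals. H3f3a differed by 0.09 log2 units in brainstem (95% interval −0.14 to 0.31) and by −0.10 in telencephalon (−0.30 to 0.10). H3f3b differed by −0.10 in brainstem (−0.33 to 0.13) and by −0.06 in telencephalon (−0.26 to 0.15). Of the HIRA complex, Cabin1 differed by 0.12 in brainstem (−0.10 to 0.33), which became 0.026 without control brainstem 61 and 0.21 without control brainstem 59, and by 0.0016 in telencephalon (−0.19 to 0.20). Hira lay at 0.07 (−0.14 to 0.28) and −0.05 (−0.24 to 0.13), and Ubn1 at −0.04 (−0.26 to 0.19) and −0.09 (−0.29 to 0.12). Daxx lay at 0.01 (−0.20 to 0.22) and 0.05 (−0.14 to 0.23). Each of these 12 intervals includes 0, and none shows that the genotypes were alike.

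Atrx had the largest fitted difference of the members. Its fold was 2.88, 3.28 and 3.52 in the control brainstem cultures and 4.22, 3.93 and 3.62 in the K27M brainstem cultures. Each K27M value was above each control value, a pattern that 0.54% of the 11483 genes showed in this direction and 1.98% in the other. The lowest control value, 2.88, was culture 51 and the highest K27M value, 4.22, culture 41. Neither number occurs in the other genotype in brainstem. Under the numbers found in both, K27M was at 3.93 against 3.28 (59) and at 3.62 against 3.52 (61). No other member separated in brainstem. The percentiles separated as well, from 41.4 to 67.9 in control and 86.3 to 88.4 in K27M. It was the 1 member to do so in brainstem, where 3.61% of genes did in this direction and 1.97% in the other. The fitted difference was 0.21 ± 0.11 log2 units (SE, 95% interval −0.01 to 0.43), which did not pass the test (limma, unadjusted p = 0.0568, adjusted p = 0.9995), and which fell to 0.12 without control brainstem 61. The genotypes did not overlap on the centred log2 scale of the fit either. The share of all genes with this pattern was not counted on that scale, so no weight can be put on it. Atrx is X-linked, and the study used both sexes without giving the make-up of each pool. The share of peaks on the X chromosome was 2.05% to 2.37% in control brainstem and 2.05% to 2.23% in K27M brainstem. The median fold percentile of those peaks was 56.7, 71.8 and 70.5 in the control brainstem cultures. It was 65.8, 67.2 and 72.1 in the K27M brainstem cultures, in the order of the culture numbers. The part of the X chromosome in the difference was not tested. In telencephalon the fold was 2.75, 2.76 and 4.36 in control and 3.74, 3.44, 3.55 and 3.34 in K27M, so that control telencephalon 61 lay above all K27M libraries. The fitted difference there was 0.00082 (−0.20 to 0.20), and the difference between the regions was 0.21 (−0.07 to 0.49, adjusted p = 0.9998).

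Asf1a was the other member whose genotypes separated. Its fold was 3.24, 2.60 and 3.11 in control telencephalon and 3.44, 3.82, 3.44 and 3.79 in K27M telencephalon. No values overlapped, as for 2.22% of genes in this direction and 0.0348% in the other. On the centred log2 scale of the fit they did overlap, with control telencephalon 51 at 0.0077 above K27M telencephalon 51 at −0.073 and K27M telencephalon 59 at 0.0033. The percentiles overlapped, with 79.4 in control telencephalon 51 and 75.2 in K27M telencephalon 59, and 0 of 8 members separated by percentile in telencephalon (3.83% of genes with K27M above and 0.662% below). The fitted difference was 0.20 ± 0.11 (SE, 95% interval −0.02 to 0.41, limma, adjusted p = 0.9995). In brainstem Asf1a was at 2.79, 2.43 and 3.69 in control and at 3.49, 3.61 and 2.79 in K27M, with overlap, and the fitted difference was also 0.20 ± 0.12 (−0.04 to 0.44). This estimate turned on single libraries, falling to 0.08 without K27M brainstem 59 and to 0.10 without control brainstem 59, and reaching 0.33 without control brainstem 61, and the telencephalic one fell to 0.08 without control telencephalon 61 and reached 0.30 without control telencephalon 51.

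**Figure D4:**
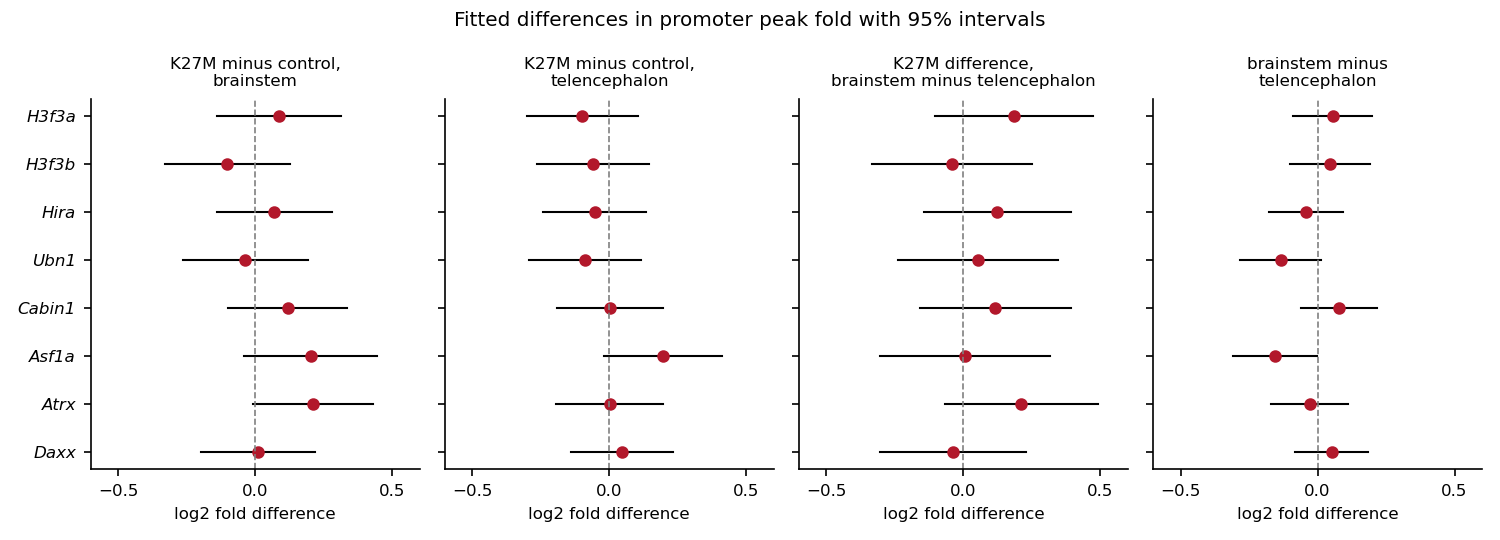
Fitted differences in promoter peak fold (x axis, log2 units) of the 8 members, with 95% intervals as lines, for K27M minus control in brainstem and in telencephalon, the difference between those, and brainstem minus telencephalon. Every interval includes 0 except that of Asf1a between regions, −0.31 to −0.00027.

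Between regions, over both genotypes, 0 of 8 members passed the adjusted threshold (limma), against 2 of 11483 genes (0.0174%). Those were Crnde and Irx5, both with the lower fold in brainstem. They share a start region and were named after their values were seen. At an unadjusted p under 0.05 there was 1 member of 8 and 590 genes (5.14%). The member was Asf1a, with a brainstem minus telencephalon difference of −0.15 log2 units (limma fit over all genes, adjusted p = 0.941, 95% interval −0.31 to −0.00027). Ubn1 followed with −0.13 (95% interval −0.28 to 0.01). The other members lay between −0.04 (Hira) and 0.08 (Cabin1).

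The summed width of all peaks at a member's promoters was a further readout of the same regions. The limma fit of its log2 value called 0 of 8 members and 0.0% of genes between genotypes in either region, and 416 genes (3.62%) in brainstem and 468 (4.08%) in telencephalon had an unadjusted p under 0.05. Atrx in telencephalon and H3f3b in brainstem were among them. The difference of the K27M effect between regions gave 0 of 8 members and 0.0% of genes past the adjusted threshold, and 0 members and 3.2% of genes at the unadjusted one. Between regions 0 members and 0.00871% of genes passed, and 1 member, H3f3b, and 4.96% of genes had an unadjusted p under 0.05. In telencephalon the Atrx width was 714, 394 and 1028 bp in control and 1051, 1262, 1059 and 1556 bp in K27M. The groups did not overlap, as for 2.41% of genes in this direction and 0.383% in the other, and the fitted difference was 0.77 log2 units (95% interval 0.24 to 1.29, limma, unadjusted p = 0.0083, adjusted p = 0.979). The highest control value and the lowest K27M value were 1028 and 1051 bp. In brainstem the Atrx widths overlapped, at 1229, 653 and 1591 bp in control and 1173, 1341 and 928 bp in K27M. There 0 of 8 members separated by width, against 1.58% of genes with K27M above control and 3.06% below.

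H3f3b showed how such a sum can turn on the edge of a window. Its fitted difference in brainstem was −0.73 log2 units (95% interval −1.28 to −0.18, limma, unadjusted p = 0.0141, adjusted p = 0.9995). A separate peak over the starts of Unk, a gene for an RNA-binding zinc finger protein, was called in 13 of 13 libraries and reached across the outer edge of the H3f3b window in 11. In K27M brainstem 41 and K27M brainstem 61 this peak began 41 and 149 bp beyond the edge and was not counted. The same sum gave H3f3b a brainstem minus telencephalon difference of −0.55 (−0.90 to −0.20, limma adjusted p = 0.968). The H3f3b promoter peak itself was 923, 796 and 947 bp wide in control brainstem and 1074, 717 and 753 bp in K27M brainstem, with overlap.

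Outside their promoter windows the members held 19 merged gene body peaks, of which 2 were called in 13 of 13 libraries and 10 in a single library. Among the 43480 merged gene body peaks of all coding genes, 5.95% were called in 13 libraries and 50.3% in 1. A library called 2 to 9 of the 19, fewest in control telencephalon 59 and K27M telencephalon 59. H3f3b and Asf1a had none, H3f3a 2, Hira 2, Ubn1 2, Atrx 4, Daxx 1 and Cabin1 8. The Daxx peak, chr17:33915408-33916484, was called in 13 of 13 libraries but lay mostly beyond the end of the gene, over promoter windows of Tapbp and Zbtb22, and its called interval touched the Daxx gene in only 1 library. None of the 19 was called in all libraries of one genotype and none of the other within a region. In brainstem 0.0499% of all gene body peaks were found in every K27M and no control library and 0.263% the reverse, and in telencephalon 0.214% and 0.0217%.

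Cabin1 carried the strongest of these peaks inside an intron, at chr10:75703460-75705029, 60097 bp downstream of the gene start and outside the promoter window of any gene. Its fold was 3.94, 3.74 and 4.75 in control brainstem, 4.61, 3.66 and 3.81 in K27M brainstem, 3.41, 3.33 and 4.49 in control telencephalon and 3.64, 4.26, 4.09 and 4.19 in K27M telencephalon. All groups overlapped. The mean was 3.99 ± 0.45 (SD, n = 13), the percentile ran from 79.8 to 95.2, and the fold was above that of the Cabin1 promoter peak in 11 of 13 libraries. It was called in 12 libraries at a p-value of 1e-10 or less, where the Cabin1 promoter was called in 6.

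A weaker Cabin1 peak at chr10:75693678-75695300, over a coding exon, was called in 6 of 6 brainstem libraries, in 3 of 4 K27M telencephalon libraries and in 0 of 3 control telencephalon libraries. Where called, its fold was 2.65, 2.78 and 3.17 in control brainstem and 3.94, 3.57 and 2.86 in K27M brainstem, which overlap, and 3.17, 3.11 and 2.54 in K27M telencephalon cultures 41, 51 and 61. With every list cut to equal length it was called in 5 libraries. It was singled out after its values were seen, and its absence from control telencephalon was not tested.

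**Figure D5:**
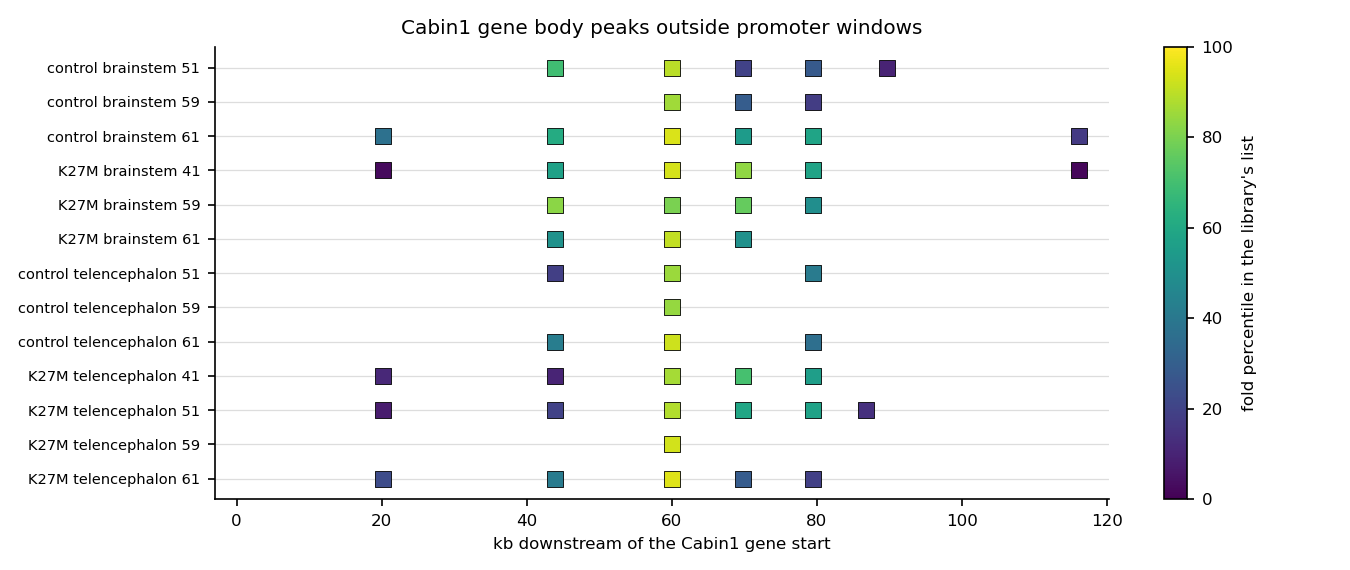
Called peaks inside the Cabin1 gene and outside its promoter windows (squares, one row per library), by distance from the gene start (x axis, kb) and coloured by the percentile of the fold within the library's list (0 to 100). The column near 60 kb is filled in all 13 libraries, and the next column to its right is empty in the 3 control telencephalon libraries.

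The wider machinery was described by 24 further histone chaperones and H3.3 partners, of which 19 had a promoter peak in 13 of 13 libraries. Their median mean percentile was 78.5 and their median mean fold 3.61, against 70.3 and 3.4 for the members. Asf1b, the proliferation-linked paralogue of Asf1a, was highest with a fold of 4.75 ± 0.54 and a percentile never under 96.0, which was above the Asf1a value in 13 of 13 libraries. Cdan1, a partner of the Asf1 proteins, followed at 4.45 ± 0.45. The lowest of the constantly called by mean percentile were Dek, an H3.3-binding protein, with a fold of 2.63 ± 0.26, and Chaf1a, a subunit of the replication-coupled chaperone CAF-1, with 2.77 ± 0.37 (SD, n = 13). Chd1 and Ipo4 lacked a peak in control telencephalon 59, Mcm2 in control telencephalon 59 and K27M telencephalon 41, and Pml had one in control brainstem 59 alone. Hjurp, the centromeric chaperone, had none in any library. None of the 19 tested passed the adjusted threshold in any of the 4 contrasts (limma). By fold, at an unadjusted p under 0.05, there was 1 of 19 in brainstem (5.26%, against 3.96% of all genes). It was Tonsl, 0.31 ± 0.12 log2 units higher in K27M (SE, limma adjusted p = 0.9995). There was 1 of 19 between regions, Dek (5.26%, against 5.14% of all genes). Its brainstem minus telencephalon difference was −0.18 (limma adjusted p = 0.941). By summed width 0 of 19 reached this level between genotypes in either region. Between regions 2 of 19 did (10.5%, against 4.96% of all genes).

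Across the 13 libraries, which share cultures and differ in list length, the centred log2 fold of H3f3a moved most like those of Fam136a (Pearson r = 0.81), Pank3 (0.77) and Pcgf3 (0.77) among 11481 genes. H3f3b was the most similar member, with r = 0.69 and Spearman's rho = 0.64, rank 34 of 11481, and r = 0.71 without the 2 libraries farthest from the H3f3a median. Cabin1 had r = 0.49, which fell to 0.15 without those libraries. Asf1a ran the other way, with r = −0.61 and rho = −0.70 (r = −0.71 without them). The median over all genes was 0.02, and 3.32% of genes had r over 0.5. These values describe the 13 libraries and carry no test.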

How the data were processed

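OPC cultures were profiled by Omni-ATAC with paired-end sequencing. Per the study's methods and the submitters' processing notes, the authors trimmed reads with Trim Galore 0.6.7 and cutadapt 3.4, aligned them to mm10 with BWA 0.7.17-r1188 in an nf-core pipeline and dropped reads in the ENCODE blacklist. MACS2 2.2.7.1 was then run per library in its broad mode. The deposited columns hold the fold ratio over local background, the −log10 p and −log10 q averaged over the peak, and a score derived from the −log10 q that was not used. The study gives a broad cutoff only for its ChIP-seq peaks. In the deposited ATAC-seq lists −log10 q began at 1.00, a q of 0.0998. Counts were not used here, so depth is unknown and no counting interval can be given.

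Promoter windows were laid around every GENCODE M21 start, and the peak with the highest fold among those overlapping by at least 1 bp was taken. Differences were fitted with limma 3.58.1 in R 4.3.3 (trended variance, two-sided, Benjamini-Hochberg over 11483 genes), with all 13 libraries in one fit and the culture number as a block. The model was run on simulated data with independent noise, no culture effects and added changes larger than any member's difference in fold. That run does not check the block, nor the power for differences as small as those of the members. The block follows the study's own model, which accounted for matched cultures. That equal numbers mark such a match is not stated in the labels and was assumed. Gene body peaks were joined over libraries and lay outside the gene's own windows. Merged peaks, sequences and figures were made with Python 3.11.15. The members and gene lists were chosen with earlier results of these data known. Named were the 8 members; of the wider list the genes past the adjusted threshold (there were none), the 2 highest and 2 lowest by percentile and those lacking a peak; the 3 genes most like H3f3a; and genes starting under a member's peak. Crnde, Irx5, Tonsl, Unk, Tapbp, Zbtb22 and the single Cabin1 peaks were named after their values were seen.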

Additional observations from a re-analysis of the deposited data

Results flagged for a closer look

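In groups of 4 libraries a value was picked out when its gap to the nearest other library took up nearly the whole range of the group (Dixon's criterion at 95%). Of 24 sets of values screened in K27M telencephalon, the fold, percentile and summed peak width of 8 members, 1 was picked out, and chance alone picks out about 1 in 20. The Hira promoter fold was 3.71 in K27M telencephalon 51, against 3.17 to 3.20 in the other 3 libraries of the group. Its percentile there, 77.5, was not picked out. K27M telencephalon 51 had 52164 peaks, the longest list of its group, and the part of list length in this value was not tested.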

How the results depend on the processing

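Under the alternatives run, for fold in all 4 contrasts and for summed width between genotypes within each region, 0 of the members tested passed the adjusted threshold. At p of 1e-10 or less 1 member could be tested, and with lists of equal length 6 of 8 could. Atrx and Asf1a were tested in neither setting, since each lacked a peak in some library there. Of 318 recomputed differences in fold between genotypes (smallest limma adjusted p 0.887), 285 kept their direction and 33 changed it. Deviations of same-numbered libraries correlated with a median of 0.087 (16 pairs, −0.11 to 0.29, 7 of them over 0.1). For libraries with different numbers the median was −0.017 (47 pairs, −0.24 to 0.33, 6 of them over 0.1). Same-numbered libraries were somewhat more alike, but the ranges overlapped, and the numbers are not shown to pair the samples. Leaving out the replicate block moved the Atrx difference in brainstem from 0.21 to 0.30 (unadjusted p = 0.0091, limma adjusted p = 0.9997). Without the replicate block Cabin1 in telencephalon turned to −0.042, Daxx in brainstem to −0.026 and Ubn1 in brainstem to 0.0026, and the region comparison called 4 genes in place of 2. No centring gave −0.014 for Daxx in brainstem, 0.028 for H3f3b and 0.033 for Hira in telencephalon, 1 gene called by genotype in brainstem in place of 0 and 0 by region. With percentiles in place of fold, H3f3a, H3f3b and Hira in telencephalon were 3.78, 8.42 and 5.12 points higher in K27M, and 0 genes differed by region. With lists of equal length Cabin1 in telencephalon was −0.0055. The region count was 0 at p of 1e-10 or less (962 genes tested, 1 of 8 members called in all libraries), 1 with windows of 500 bp and 6 with genes called in 2 or more libraries of every group. The cause of these moves was not tested.

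Leaving out 1 library at a time gave 2 to 4 genes by region (4 without control telencephalon 59). Ranges of the member differences that changed direction were −0.070 to 0.095 for Atrx, −0.062 to 0.041 for Cabin1, −0.17 to 0.00019 for H3f3a, −0.17 to 0.091 for H3f3b and −0.19 to 0.031 for Ubn1 in telencephalon, and −0.020 to 0.031 for Daxx, −0.014 to 0.16 for H3f3a and −0.17 to 0.070 for Ubn1 in brainstem. Others kept their direction but moved by over 1.5 times. In brainstem Cabin1 ran from 0.026 (without control brainstem 61) to 0.21, H3f3b from −0.19 (without control brainstem 61) to −0.057 (without K27M brainstem 61) and Hira from 0.040 (without control brainstem 61) to 0.11 (without control brainstem 51). In telencephalon Daxx ran from 0.0040 (without control telencephalon 59) to 0.086 (without K27M telencephalon 61), and Hira from −0.072 (without K27M telencephalon 59) to −0.0049 (without K27M telencephalon 51).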
